A study of Homo sapiens with 9 samples.

Results

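Transforming growth factor beta (TGF-beta) and the bone morphogenetic proteins (BMPs) are secreted ligands that bind paired type I and type II receptor kinases. The receptors phosphorylate SMAD proteins, which join the shared partner SMAD4, enter the nucleus and switch target genes on or off, while BAMBI and SMAD7 act as brakes. In colorectal epithelium TGF-beta is known to restrain growth, and colorectal carcinomas often carry changes in TGFBR2, SMAD4 or other parts of the pathway.

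The results below concern 10 genes of this pathway, namely the ligand genes BMP4, BMP7 and INHBA, the receptor genes TGFBR1 and TGFBR2, the inhibitor genes BAMBI and SMAD7, the SMAD genes SMAD3 and SMAD4, and the target gene ID1. They were given by symbol, and all probe sets annotated to exactly 1 of these symbols were taken, which made 25 of the 54675 probe sets on the arrays and 10 of the 19775 genes with such a probe set. A probe set is a group of short probes that together report 1 stretch of a transcript. Of the 25, 18 passed the filter on low signal (above the median of the array on at least 3 of the 9 arrays), and they covered 9 of the 10 genes. BMP4, BAMBI, SMAD7 and ID1 had 1 probe set each.

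Total RNA of cultured human cells was hybridised to Affymetrix arrays, 3 for each of 3 groups. SCP51 and SCP58 are clonal lines, each begun from 1 cell of SW480/EGFP, the SW480 human colorectal carcinoma line carrying EGFP (a green fluorescent protein), which is called the parent here. When implanted orthotopically in mice, SCP51 had a high and SCP58 a low metastatic potential, and the RNA came from the cultures. Each class was 1 clonal line, so every difference below is between lines, and no treatment was named in any group. The question was which genes set the 2 lines apart from each other and from the parent. The labels call the 3 arrays of a group biological replicates and do not give the history of the cultures, so the p-values reflect only how these arrays scatter.

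Values are log2 of the deposited signal, and differences are log2 differences, so that 1 unit is a doubling. A gene is represented by its brightest probe set that passed the filter. It was called changed at a limma p under 0.05 after Benjamini-Hochberg adjustment across the 13598 genes in the test. Array medians lay between 5.36 and 5.47. SCP51 replicate 1 stood apart from the rest: its correlations with the other 8 arrays were 0.891 to 0.911 across genes, against 0.945 to 0.979 among those 8. Its GAPDH 3′ to 5′ signal ratio, a measure of RNA and labelling quality, was 0.761, against 0.894 to 0.957 on the others, while its ACTB ratio of 1.08 lay within the 0.938 to 1.16 of the others. Of 11 colorectal epithelium markers, 8 lay above the array median on all arrays, whereas KRT20 and LGALS4 lay at or below it on all of them. The signal of these markers was summed on the linear scale of the deposited values, not as log2. The sum was 18966 to 24569 in SCP51, 19317 to 21251 in SCP58 and 20085 to 21126 in the parent. Of 7 fibroblast markers, 1 lay above the array median on all arrays. COL1A2, COL3A1, LUM and THY1 lay at or below it on all arrays. On the same linear scale the list summed to 307 to 357 in SCP51, 312 to 366 in SCP58 and 359 to 386 in the parent. Of 4 endothelium markers 0 and of 2 measured leukocyte markers 1 were above the median on all arrays.

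The 3 genes called below were TGFBR2, SMAD7 and BAMBI, and the stretches around 1 transcription start of each are shown because SMAD7 and BAMBI are also known as targets of the pathway they inhibit. The windows come from RefSeq (build GRCh38.p14) and run from 250 bases before to 50 bases after the start. They were searched on both strands for 3 motifs, and matches are in capitals. CAGAC is the short SMAD-binding element. Its palindrome is GTCTAGAC, and a GC-rich motif bound by SMADs is GGCGCC. The SMAD7 window is chr18:48950916-48951215 (minus strand), the TGFBR2 window is chr3:30606351-30606650 (plus strand) and the BAMBI window is chr10:28677271-28677570 (plus strand).
SMAD7: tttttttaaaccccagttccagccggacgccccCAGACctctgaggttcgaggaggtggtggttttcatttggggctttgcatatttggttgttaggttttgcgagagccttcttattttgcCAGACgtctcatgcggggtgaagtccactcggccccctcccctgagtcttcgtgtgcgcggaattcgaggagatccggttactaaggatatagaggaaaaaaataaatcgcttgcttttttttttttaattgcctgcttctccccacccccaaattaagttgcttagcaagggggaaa
TGFBR2: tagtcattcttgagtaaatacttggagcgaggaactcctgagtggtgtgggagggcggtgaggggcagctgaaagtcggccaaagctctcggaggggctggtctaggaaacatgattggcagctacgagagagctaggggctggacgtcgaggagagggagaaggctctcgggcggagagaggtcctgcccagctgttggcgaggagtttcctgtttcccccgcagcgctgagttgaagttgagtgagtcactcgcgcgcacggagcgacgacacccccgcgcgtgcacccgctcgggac
BAMBI: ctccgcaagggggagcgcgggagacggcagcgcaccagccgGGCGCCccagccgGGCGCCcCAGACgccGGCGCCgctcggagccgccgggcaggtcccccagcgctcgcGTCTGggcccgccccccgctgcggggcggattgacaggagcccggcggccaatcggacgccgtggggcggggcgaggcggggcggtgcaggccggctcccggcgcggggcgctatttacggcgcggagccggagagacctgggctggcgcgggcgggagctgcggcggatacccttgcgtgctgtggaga
The SMAD7 window held 2 matches to CAGAC, starting 217 and 128 bases before the start of transcription, and the other SMAD7 windows of the table held 1 and 0. The BAMBI window held 2 matches to CAGAC, at 189 and 140 bases before the start, and 3 to GGCGCC, at 209, 196 and 181 bases before it. In the TGFBR2 window these letters were not found, nor in the other TGFBR2 window of the table. CAGAC on either strand was present in 45.3% of the 35116 windows of this length in the table, GGCGCC in 19.2% and GTCTAGAC in 0.202%. Windows were found for 9 of the 10 genes, and some of the 9 have several starts. A match is only a match of letters, and no binding was measured in these cells.

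**Figure D1:**
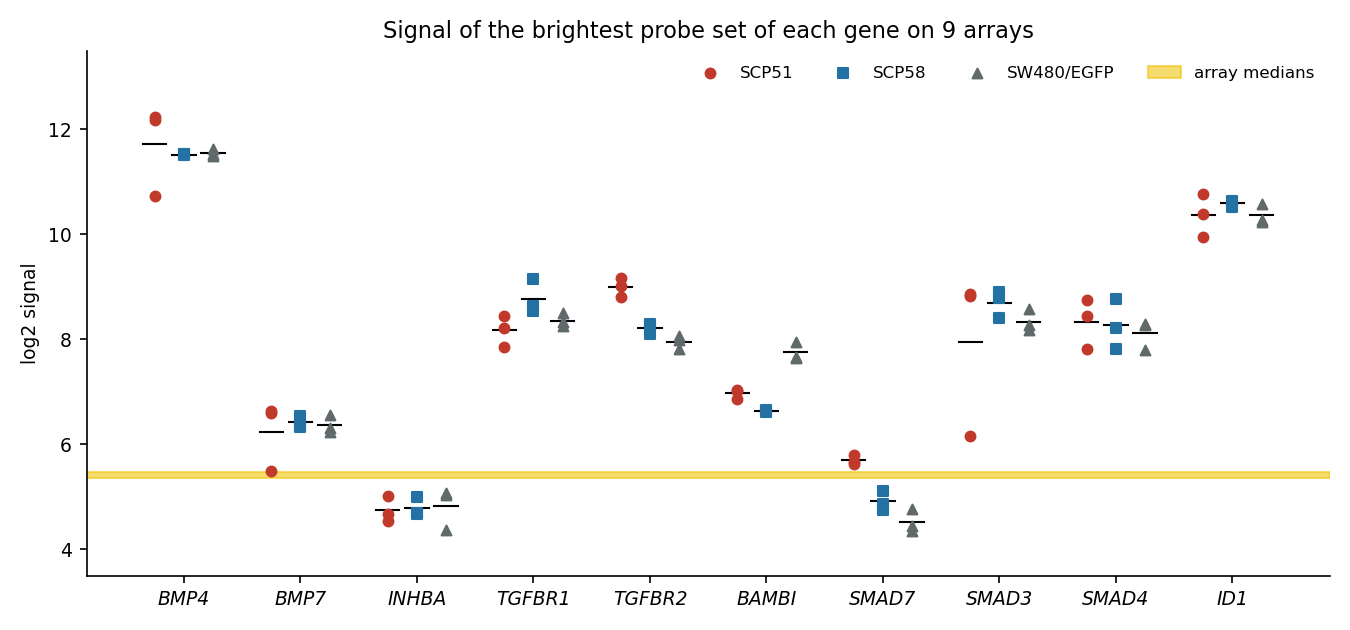
Log2 signal (vertical axis) of 1 probe set for each of the 10 genes (horizontal axis) on the 9 arrays, with SCP51, SCP58 and the parent from left to right, points for arrays, bars for group means and a band for the array medians of 5.36 to 5.47. TGFBR2 and SMAD7 sit higher in SCP51 and BAMBI sits higher in the parent, while BMP4, BMP7 and SMAD3 each have 1 low SCP51 point, at 10.74, 5.50 and 6.15.

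Among the ligands, BMP4, which signals through BMP receptors and SMAD1, SMAD5 and SMAD9, was measured well above the array medians in all 3 groups. Its signal was 10.74, 12.24 and 12.18 on SCP51 replicates 1, 2 and 3, against 11.51, 11.53 and 11.53 in SCP58 and 11.53, 11.63 and 11.49 in the parent. SCP51 replicate 1 lay below all other arrays and the other 2 SCP51 arrays above all of them, so the groups overlapped and BMP4 was not called. The SCP51 difference from SCP58 was 0.20 ± 0.34 (SE; 95% interval -0.58 to 0.97; adjusted p = 0.780) and that from the parent was 0.17 ± 0.34 (adjusted p = 0.804). Without SCP51 replicate 1 these became 0.69 ± 0.062 (adjusted p = 0.00136) and 0.66 ± 0.062 (adjusted p = 0.000936), past the threshold. Without SCP51 replicate 2 the same differences were -0.065 and -0.091, and without SCP51 replicate 3 they were -0.033 and -0.059. Why BMP4 read low on SCP51 replicate 1 was not tested.

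BMP7, a second BMP ligand, showed the same single low array. Its brightest probe set read 5.50, 6.64 and 6.59 in SCP51, against 6.54, 6.40 and 6.33 in SCP58 and 6.24, 6.32 and 6.56 in the parent. Apart from SCP51 replicate 1 all arrays lay between 6.24 and 6.64. No BMP7 difference was called, with adjusted p from 0.754 to 1.0 over the 3 comparisons and a difference from the parent of -0.13 ± 0.28 in SCP51. Of the other 3 BMP7 probe sets, 1 read 6.11 on SCP51 replicate 1 and 5.14 to 5.66 on the other arrays, opposite in direction to the brightest, and another was low on replicate 1, at 5.32 against 5.87 to 6.08. INHBA, which encodes the subunit of activin A, was at or below the array median on all 9 arrays with each of its 3 probe sets. The brightest read 4.68, 5.02 and 4.53 in SCP51, against 4.68, 4.70 and 5.00 in SCP58 and 5.08, 4.37 and 5.05 in the parent. These ranges overlapped, and in a fit without the filter INHBA differed by -0.051 between SCP51 and SCP58 and by -0.086 between SCP51 and the parent (adjusted p = 0.934 and 0.868).

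TGFBR2, the type II receptor that binds TGF-beta, was higher in SCP51 than in either of the other groups. Its brightest probe set (208944_at) read 8.81, 9.17 and 9.01 in SCP51, against 8.10, 8.26 and 8.30 in SCP58 and 7.98, 7.82 and 8.07 in the parent. Every SCP51 array lay above every other array, and every SCP58 array lay above every parent array. In a culture, a higher signal can come from more cells that carry the transcript or from more transcript in each cell, and these cannot be told apart here. TGFBR2 was 0.78 ± 0.14 log2 units higher in SCP51 than in SCP58 (95% interval 0.47 to 1.09; 1.72-fold; adjusted p = 0.0207). It was 1.04 ± 0.14 higher than in the parent (0.73 to 1.35; 2.05-fold; adjusted p = 0.00717). The SCP58 difference from the parent was 0.26 ± 0.14 (-0.052 to 0.57; adjusted p = 0.701) and was not called.

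The second TGFBR2 probe set (207334_s_at) did not show this pattern. It read 6.02, 6.23 and 6.23 in SCP51, against 5.92 to 6.12 in SCP58 and 5.64, 6.26 and 6.01 in the parent, so that all 3 groups overlapped. In the fit of all 29166 probe sets it differed by 0.15 ± 0.16 between SCP51 and SCP58 (adjusted p = 0.662) and by 0.19 ± 0.16 between SCP51 and the parent (adjusted p = 0.570), while the brighter one kept adjusted p = 0.0260 and 0.0105. With the 2 probe sets averaged, the TGFBR2 difference was 0.46 against SCP58 (adjusted p = 0.0678, no longer called) and 0.61 against the parent. The call against SCP58 was also lost without SCP51 replicate 2 (adjusted p = 0.0756) and without SCP58 replicate 1 (0.0548), 2 (0.0808) or 3 (0.0611), whereas the call against the parent was made in all 20 alternatives.

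TGFBR1, the type I receptor that TGFBR2 recruits and activates, read 7.85, 8.45 and 8.21 in SCP51, against 8.54, 8.64 and 9.15 in SCP58 and 8.25 to 8.50 in the parent. On this probe set, the brightest, all SCP58 arrays lay above all arrays of the other groups, and SCP51 overlapped the parent. The SCP51 difference from SCP58 was -0.61 ± 0.21 (95% interval -1.08 to -0.13), which did not pass the test over all genes (adjusted p = 0.141). SCP58 minus the parent was 0.42 ± 0.21 (adjusted p = 0.674) and SCP51 minus the parent was -0.19 ± 0.21 (adjusted p = 0.633). The other tested TGFBR1 probe set (206943_at) was dim and did not show SCP58 above the rest. It read 4.87 to 5.48 in SCP51, 4.99 to 5.91 in SCP58 and 5.32 to 5.70 in the parent. Its SCP58 difference from the parent was 0.0073 ± 0.26, and it overlapped in each comparison. A TGFBR1 probe set outside the test (236561_at) read 7.01 on SCP51 replicate 1 and 3.75 to 4.46 on the other 8 arrays, so it was above the array median on that array only.

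Of the inhibitors, BAMBI differed most clearly among the groups. BAMBI is a membrane protein shaped like a type I receptor that lacks the kinase and blocks receptor pairing. It read 6.86, 7.02 and 7.03 in SCP51, against 6.62, 6.63 and 6.66 in SCP58 and 7.65, 7.95 and 7.66 in the parent. The 3 groups did not overlap, with SCP58 lowest, SCP51 next and the parent highest. BAMBI was lower in both lines than in the parent, with a difference of -0.78 ± 0.12 in SCP51 (95% interval -1.05 to -0.52; 1.72-fold lower; adjusted p = 0.0114) and of -1.12 ± 0.12 in SCP58 (-1.38 to -0.86; 2.17-fold lower; adjusted p = 0.00884). Between the lines, SCP51 minus SCP58 was 0.34 ± 0.12 (0.074 to 0.60) and was not called (adjusted p = 0.142). The SCP58 call was lost without SCP58 replicate 2 (adjusted p = 0.0568) or 3 (0.0660) and without parent replicate 1 (0.0818) or 3 (0.0658), while the difference stayed between -1.17 and -1.02. The SCP51 call was made in 19 of 20 alternatives, the exception being a fit of only the 6 arrays compared (adjusted p = 0.0571).

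SMAD7, the inhibitory SMAD that competes for the receptors and marks them for degradation, was dim in all groups. It read 5.62, 5.67 and 5.79 in SCP51, against 4.76, 4.87 and 5.12 in SCP58 and 4.35, 4.78 and 4.45 in the parent. Only the 3 SCP51 arrays lay above their array medians and above all other arrays, and SCP58 overlapped the parent. SMAD7 thus passed the filter only through the group where it was high. It was 0.78 ± 0.16 higher in SCP51 than in SCP58 (95% interval 0.42 to 1.14; 1.72-fold; adjusted p = 0.0351) and 1.17 ± 0.16 higher than in the parent (0.81 to 1.53; 2.25-fold; adjusted p = 0.00804). The SCP58 difference from the parent was 0.39 ± 0.16 (0.029 to 0.75; adjusted p = 0.535).

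The sizes for SMAD7 depend on how such low signals are treated. With 32 added to the signal before log2, the SMAD7 differences were 0.43 against SCP58 and 0.60 against the parent. The call against the parent was made in all 19 alternatives that tested it. The call against SCP58 was lost without parent replicate 3 (adjusted p = 0.0632), without SCP58 replicate 1 (0.0790), 2 (0.129) or 3 (0.0552) and, with no filter, without SCP51 replicate 2 (0.106) or 3 (0.0759).

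**Figure D2:**
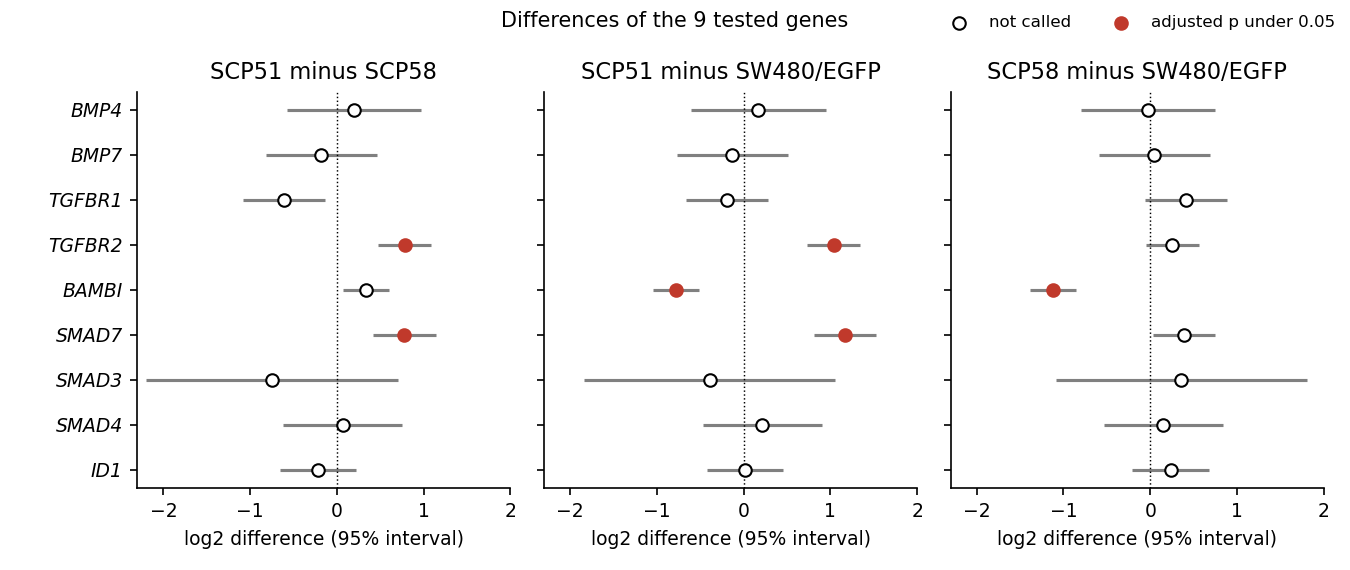
Log2 differences (horizontal axis) of the 9 tested genes (vertical axis) in the comparisons SCP51 minus SCP58, SCP51 minus the parent and SCP58 minus the parent, with 95% intervals and marks for genes called at an adjusted p under 0.05. TGFBR2 (0.78) and SMAD7 (0.78) are called in the first, TGFBR2 (1.04), SMAD7 (1.17) and BAMBI (-0.78) in the second and BAMBI (-1.12) in the third.

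SMAD3, which carries the TGF-beta and activin signal into the nucleus, had 4 probe sets that did not move alike. The brightest (218284_at) read 6.15, 8.84 and 8.87 in SCP51, against 8.79, 8.41 and 8.90 in SCP58 and 8.19, 8.27 and 8.57 in the parent. SCP51 replicate 1 lay more than 2 log2 units below every other array, and the other 2 SCP51 arrays lay within the SCP58 range. The SCP51 difference from SCP58 was -0.75 ± 0.64 (adjusted p = 0.532) and that from the parent was -0.39 ± 0.64 (adjusted p = 0.757). Without SCP51 replicate 1 the SMAD3 differences turned to 0.15 (adjusted p = 0.653) and 0.51 (adjusted p = 0.136).

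A second SMAD3 probe set (205398_s_at) was highest in SCP58. It read 7.30, 6.69 and 6.94 in SCP51, against 7.61, 7.98 and 7.70 in SCP58 and 6.42, 6.75 and 6.58 in the parent. The SCP58 arrays lay above all others, while SCP51 and the parent overlapped. In the fit of all probe sets the SCP58 difference from the parent was 1.18 ± 0.18 (adjusted p = 0.0721) and the SCP51 difference from SCP58 was -0.79 ± 0.18 (adjusted p = 0.0548), both short of the threshold. Without SCP51 replicate 1 both passed it, with adjusted p = 0.0197 and 0.0148 for differences of 1.18 and -0.95. The remaining 2 SMAD3 probe sets differed by -0.43 to 0.40 over the 3 comparisons. Of the 18 probe sets tested, 2 were called between SCP51 and SCP58 (3.35% of all probe sets), 3 between SCP51 and the parent (1.89%) and 1 between SCP58 and the parent (0.134%), and these were the TGFBR2, SMAD7 and BAMBI probe sets already described.

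**Figure D3:**
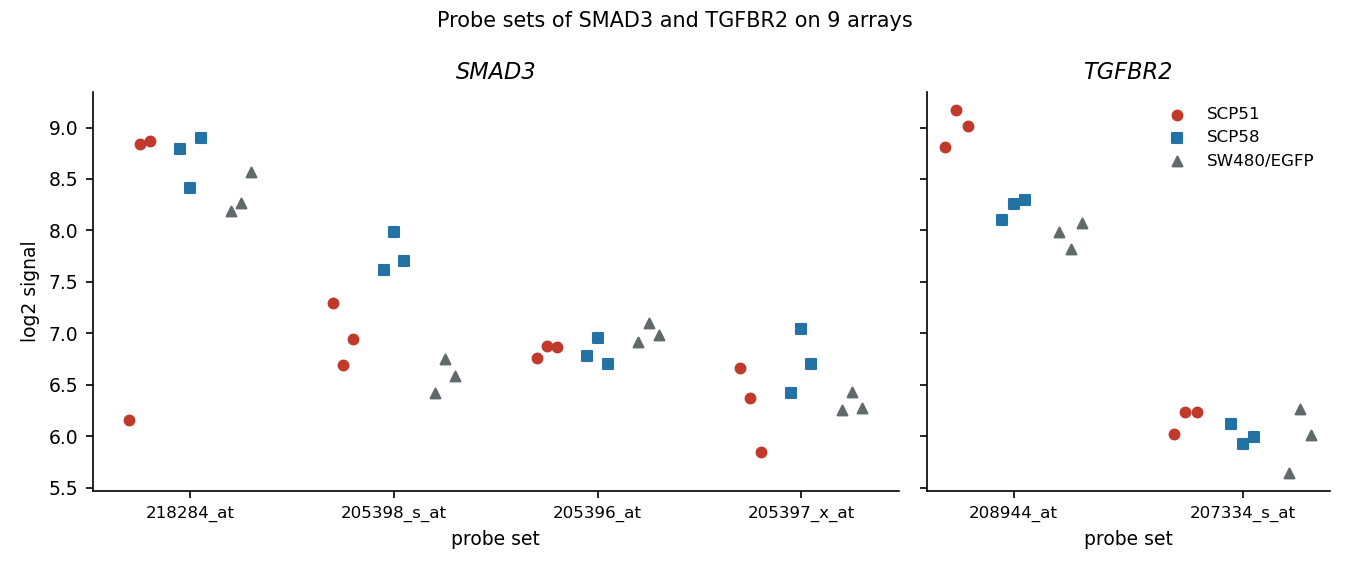
Log2 signal (vertical axis) of each probe set of SMAD3 and TGFBR2 that was tested (horizontal axis) on the 9 arrays, with SCP51, SCP58 and the parent from left to right and 1 point per array. SMAD3 205398_s_at is high in SCP58 (7.61 to 7.98) while 218284_at has 1 low SCP51 array (6.15), and of the 2 TGFBR2 probe sets only 208944_at is separated between SCP51 (8.81 to 9.17) and the other groups.

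SMAD4, the shared partner of the receptor-activated SMADs, was not called in any comparison. SW480 cells are known for lacking SMAD4 protein, which RNA signal does not show. Its brightest probe set read 7.82, 8.75 and 8.45 in SCP51, against 7.82, 8.23 and 8.76 in SCP58 and 8.29, 8.27 and 7.80 in the parent. The groups overlapped, although 2 SCP51 arrays and 1 SCP58 array lay above all parent arrays, and the 3 differences were 0.067 ± 0.30, 0.22 ± 0.30 and 0.15 ± 0.30 (adjusted p = 0.921, 0.711 and 1.0 for SCP51 against SCP58, SCP51 against the parent and SCP58 against the parent). The SMAD4 intervals reached from -0.62 to 0.75, -0.47 to 0.90 and -0.54 to 0.84, so differences within these limits were not excluded. Of the other 4 SMAD4 probe sets, 2 were below the array median on all 9 arrays. The other 2 did not move alike, and limma called neither in the fit of all probe sets (adjusted p 0.333 to 0.990). The dim 202526_at, above the array median on 3 arrays and on no parent array, differed by -0.037, 0.29 and 0.33 in the same order. All its SCP51 and SCP58 arrays lay above all parent arrays. The brighter 235725_at differed by -0.31, -0.20 and 0.11, with overlap in each comparison.

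ID1, an inhibitor of differentiation that BMP signalling switches on, read 10.77, 9.96 and 10.40 in SCP51, against 10.64, 10.53 and 10.63 in SCP58 and 10.24, 10.27 and 10.57 in the parent. SCP51 spanned both the highest and the lowest array. The ID1 differences were -0.22 ± 0.19 for SCP51 against SCP58 (adjusted p = 0.544), 0.013 ± 0.19 for SCP51 against the parent (adjusted p = 0.978) and 0.23 ± 0.19 for SCP58 against the parent (adjusted p = 0.873). None of these was called. The 95% intervals of the ID1 differences ran from -0.66 to 0.22, from -0.43 to 0.45 and from -0.20 to 0.67 in the same order.

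**Figure D4:**
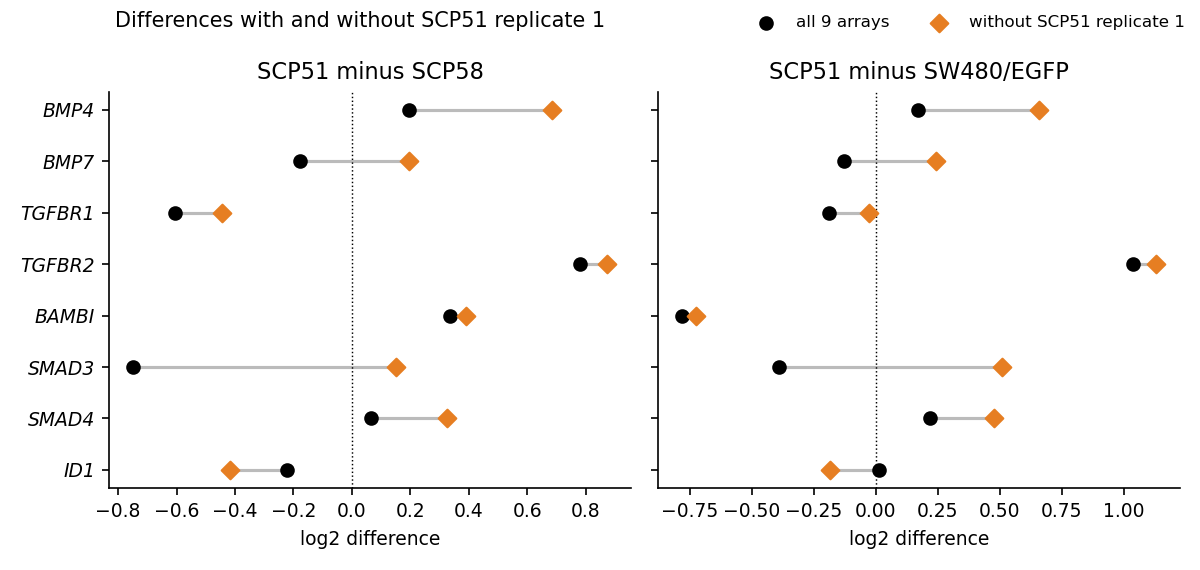
Log2 differences (horizontal axis) of 8 of the tested genes (vertical axis) for SCP51 minus SCP58 and SCP51 minus the parent, from all 9 arrays and without SCP51 replicate 1. Against SCP58, BMP4 is at 0.20 with all arrays and 0.69 without that one, and SMAD3 at -0.75 and 0.15, while TGFBR2 (0.78 and 0.87) and BAMBI (0.34 and 0.39) move little, and SMAD7 is not drawn because it no longer passed the filter without that array.

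Counted over the 9 tested genes, 2 were called between SCP51 and SCP58, both higher in SCP51 (TGFBR2 and SMAD7), where 4.08% of all genes tested were called, 1.48% higher and 2.6% lower. Between SCP51 and the parent 3 were called, with TGFBR2 and SMAD7 higher and BAMBI lower, where 2.96% of all genes were called, 1.38% higher and 1.58% lower. Between SCP58 and the parent 1 was called, BAMBI, which was lower in SCP58, against a background of 0.14% of all genes, 0.0662% higher and 0.0735% lower. The SCP51 comparisons share the SCP51 arrays, and each pair of comparisons has 1 group in common, so the calls are not independent. Arrays of the 2 groups did not overlap for 4 of the 9 genes between SCP51 and SCP58 (25.1% of all genes), for 3 between SCP51 and the parent (28.1%) and for 3 between SCP58 and the parent (17%). The median difference of the 9 genes was 0.067, 0.013 and 0.23 in the 3 comparisons, against -0.11, -0.099 and -0.00044 for all genes. Because 1 of the 9 passed the filter only through SCP51, these counts and medians describe the genes that passed and carry no test.

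Among the genes outside the 10, the 3 whose patterns over the 9 arrays were nearest to that of BAMBI were GRB10, NETO2 and TUBAL3. Likeness was the Euclidean distance between log2 values centred on the mean of each gene, and it was 0.55 for GRB10, 0.55 for NETO2 and 0.57 for TUBAL3. Like BAMBI, all 3 were lowest in SCP58 and highest in the parent on average. The SCP58 difference from the parent was -0.99 for GRB10, -1.36 for NETO2 and -0.97 for TUBAL3, and the SCP51 difference from the parent was -0.82, -1.11 and -0.46 in the same order. BAMBI was chosen for this because it had the smallest p over the 3 groups among the 10 genes, so these values are a description.

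A further 115 genes of the pathway, in 7 lists by role that were written with earlier results of these data known, were read from the same fit, and 81 of them were measured. Between SCP51 and SCP58, 5 of the 81 were called higher and 3 lower, with a median difference of -0.067 (all genes -0.11), where 1.48% of all genes were called higher and 2.6% lower. Between SCP51 and the parent 6 were called higher and 1 lower, with a median of -0.10 (all genes -0.099), where 1.38% of all genes were called higher and 1.58% lower. The probe set that stood for PMEPA1, a gene counted in both, passed the filter only through the SCP51 arrays, so these counts describe the genes that passed. Between SCP58 and the parent limma called 0 of the 81, and 8 had an unadjusted p under 0.05 (9.88%, against 8.60% of all genes). With array weights, 12 were called there (14.8%, against 9.94% of all genes).

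The list of extracellular regulators had 15 measured genes, and 3 of them, THBS1, CRIM1 and FSTL1, were called higher in both SCP51 comparisons. Beside the list counts here and below, 1.48% of all genes were called higher against SCP58 and 1.38% against the parent, and 2.6% and 1.58% lower. The list median was -0.035 against SCP58 (9 of 15 genes below 0, all genes -0.11). Against the parent it was 0.082 (7 genes below 0, all genes -0.099). THBS1 encodes thrombospondin-1, which can release TGF-beta from its latent form, and it read 10.06, 10.95 and 10.59 in SCP51, against 8.90, 8.41 and 8.96 in SCP58 and 8.18, 7.73 and 8.10 in the parent. All SCP51 arrays lay above all others. THBS1 was 1.78 ± 0.25 higher than in SCP58 (3.42-fold; adjusted p = 0.00902) and 2.53 ± 0.25 higher than in the parent (5.78-fold; adjusted p = 0.00236), and was called in all 20 alternatives in both. CRIM1, a membrane protein that binds BMPs, read 9.99, 10.21 and 10.12 in SCP51, against 9.40, 9.26 and 9.60 in SCP58 and 8.86, 8.56 and 8.96 in the parent. CRIM1 was 0.68 ± 0.15 higher than in SCP58 (adjusted p = 0.0419) and 1.31 ± 0.15 higher than in the parent (adjusted p = 0.00389). FSTL1, a secreted follistatin-like protein, was 0.78 ± 0.14 higher than in SCP58 (adjusted p = 0.0221) and 0.83 ± 0.14 higher than in the parent (adjusted p = 0.0184).

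The CRIM1 call against the parent was made in all 20 alternatives. Against SCP58 it did not hold when SCP51 replicate 2 or 3, parent replicate 1 or 3, or any SCP58 array was left out, with adjusted p for CRIM1 between 0.0703 and 0.158. The FSTL1 call against SCP58 needed SCP51 replicate 2, parent replicate 3 and SCP58 replicates 2 and 3 (without 1 of them, adjusted p 0.0534 to 0.0779), and that against the parent needed SCP51 replicate 2 and each parent array (0.0655 to 0.0869).

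Of the 14 ligand genes measured, TGFB2, which encodes TGF-beta 2, was the 1 called gene. It read 6.41, 7.39 and 7.28 in SCP51, against 5.93, 5.99 and 6.20 in SCP58 and 5.81, 5.48 and 5.42 in the parent, so SCP51 lay above all other arrays. TGFB2 was 1.46 ± 0.25 higher in SCP51 than in the parent (2.74-fold; adjusted p = 0.0197). The TGFB2 call was lost with its probe sets averaged (1.57; adjusted p = 0.388), without SCP51 replicate 2 and without any 1 parent array (adjusted p 0.0548 to 0.0932). The SCP51 difference from SCP58 for TGFB2 was 0.99 ± 0.25 and not called (adjusted p = 0.0655). It was 1.30 without SCP51 replicate 1 (adjusted p = 0.00268), was called in 4 of 20 alternatives, and was 0.021 (adjusted p = 0.993) with the TGFB2 probe sets averaged. Between SCP51 and SCP58 limma called 0 ligands, and 1 of the 14 had an unadjusted p under 0.05, against 21.3% of all genes. The brightest, INHBC and GDF15, differed by -0.066 ± 0.16 and -0.35 ± 0.27 (adjusted p = 0.844 and 0.489).

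Among 11 receptor genes measured, ACVR1 and TGFBR3 were called lower in SCP51 than in SCP58, where 2.6% of all genes were called lower. ACVR1 is a type I receptor for BMPs and activins, and it read 7.07, 7.14 and 7.17 in SCP51, against 7.95, 8.07 and 7.97 in SCP58 and 7.62, 7.57 and 7.84 in the parent. The 3 groups did not overlap. ACVR1 was lower in SCP51 than in SCP58, at -0.87 ± 0.11 (adjusted p = 0.00755), in all 20 alternatives. Against the parent it was -0.55 ± 0.11 (adjusted p = 0.0398), and that ACVR1 call was lost in 15 of 20 alternatives, among them the omission of any 1 of the 9 arrays (adjusted p 0.0529 to 0.166). TGFBR3, the co-receptor betaglycan, differed by -0.90 ± 0.20 between SCP51 and SCP58 (adjusted p = 0.0472). The TGFBR3 call did not hold when SCP51 replicate 2, parent replicate 1 or 3, or any SCP58 array was left out (adjusted p 0.0610 to 0.171).

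A further 2 receptors, chosen after their values were seen, had all SCP51 arrays below all others without being called. Arrays of the 2 groups did not overlap for 25.1% of all genes between SCP51 and SCP58 and for 28.1% between SCP51 and the parent. ACVR1B, a type I receptor for activins, read 5.17, 8.48 and 8.72 in SCP51, against 9.32, 9.44 and 9.37 in SCP58 and 9.12, 9.31 and 9.17 in the parent, with SCP51 replicate 1 far below the rest. The ACVR1B difference was -1.92 ± 0.79 against SCP58 (adjusted p = 0.210) and -1.74 ± 0.79 against the parent (adjusted p = 0.267). Without SCP51 replicate 1 both passed the threshold, at -0.77 (adjusted p = 0.00872) and -0.60 (adjusted p = 0.0304). With the ACVR1B probe sets averaged, the difference from SCP58 was -0.58 (adjusted p = 0.131). ACVR2A, a type II activin receptor, differed by -0.41 ± 0.12 against SCP58 (adjusted p = 0.0981) and by -0.27 ± 0.12 against the parent (adjusted p = 0.267). It was called in none of the 20 alternatives of either comparison. With the ACVR2A probe sets averaged, the differences were -0.096 (adjusted p = 0.637) and -0.085 (adjusted p = 0.672). RGMB, in the same list, went the other way, with all SCP51 arrays above all others. It differed by 0.34 ± 0.12 against SCP58 (adjusted p = 0.152) and by 0.25 ± 0.12 against the parent (adjusted p = 0.290), and was not called.

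The SMAD list had 4 measured genes and limma called 0 of them in each comparison. At an unadjusted p under 0.05 there was 1 between SCP51 and SCP58 (21.3% of all genes). There were 0 between SCP51 and the parent (19.6% of all genes) and 1 between SCP58 and the parent (8.60%). SMAD2, the other carrier of the TGF-beta signal, differed by -0.36 ± 0.18 between SCP51 and SCP58 (adjusted p = 0.283), and SMAD5, a carrier of the BMP signal, by 0.21 ± 0.24 (adjusted p = 0.647). Of 21 intracellular regulators, PMEPA1 was higher and PPM1A lower in SCP51 than in SCP58. PMEPA1, a target gene whose protein holds back SMAD activation, read 5.85, 6.23 and 6.11 in SCP51, against 5.45, 5.17 and 5.06 in SCP58 and 5.22, 5.10 and 5.33 in the parent. Like the SMAD7 probe set, the probe set that stood for PMEPA1 was above the array median on the 3 SCP51 arrays only. PMEPA1 was 0.83 ± 0.15 higher than in SCP58 and 0.85 ± 0.15 higher than in the parent (adjusted p = 0.0232 in each).

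With the PMEPA1 probe sets averaged, the differences were 0.52 and 0.54 (adjusted p = 0.0938 and 0.102). Without SCP51 replicate 1 another probe set stood for PMEPA1, with 0.29 and 0.31 (adjusted p = 0.322 and 0.305). The PMEPA1 call was also lost against SCP58 without SCP58 replicate 2 (0.0988) or 3 (0.0791), and against the parent without any 1 parent array (0.0716 to 0.0965). PPM1A, a phosphatase that acts on SMADs, differed by -0.83 ± 0.17 (adjusted p = 0.0378), but by -0.14 (adjusted p = 0.596) with its probe sets averaged. The PPM1A call did not hold when SCP51 replicate 2 or 3, parent replicate 3 or any SCP58 array was left out (adjusted p 0.0637 to 0.147).

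Of 7 BMP target genes measured besides ID1, MSX1, a homeobox factor, was called. It read 11.63, 11.74 and 11.85 in SCP51, against 10.76, 10.02 and 10.23 in SCP58 and 11.07, 10.68 and 10.97 in the parent, with SCP51 above all other arrays. MSX1 was 1.40 ± 0.19 higher in SCP51 than in SCP58 (2.64-fold; adjusted p = 0.0085) in all 20 alternatives, and 0.83 ± 0.19 relative to the parent without passing the test (adjusted p = 0.0578). Of 12 TGF-beta target genes, PMEPA1 (also in the list of regulators) was called in both SCP51 comparisons and CCN2 in 1. The list median was -0.043 against SCP58 (7 of 12 genes below 0, all genes -0.11). Against the parent it was -0.046 (6 genes below 0, all genes -0.099). Among those not called, JUNB differed by -0.44 and -0.50 in the same order (adjusted p = 0.0938 and 0.0867). FN1 went the other way, by 0.42 and 0.47 (adjusted p = 0.105 and 0.102). JUNB and FN1 were chosen after their values were seen. CCN2, which encodes connective tissue growth factor, read 8.85, 9.18 and 8.81 in SCP51, against 7.88, 8.24 and 8.37 in SCP58 and 7.52, 8.27 and 7.76 in the parent. CCN2 was 1.10 ± 0.22 higher in SCP51 than in the parent (adjusted p = 0.0395), a call lost without SCP51 replicate 2 or 3, parent replicate 1 or 3, or SCP58 replicate 2 or 3 (adjusted p 0.0525 to 0.150).

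**Figure D5:**
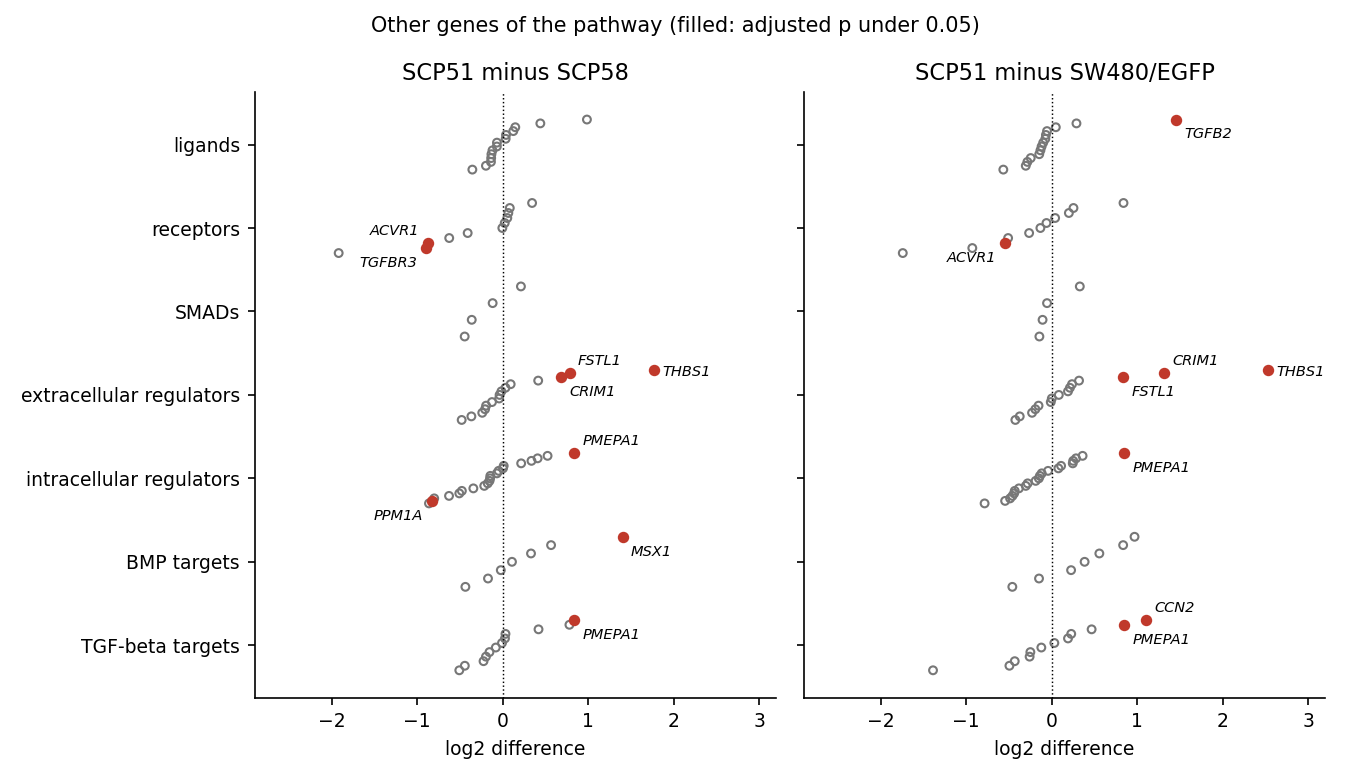
Log2 differences (horizontal axis) of the 81 other pathway genes measured, by list (vertical axis), for SCP51 minus SCP58 and SCP51 minus the parent, with 1 point per gene (genes in 2 lists appear in both) and filled, named points for genes called. THBS1 lies farthest to the right among the called genes of both SCP51 comparisons, at 1.78 and 2.53, and TGFBR3, ACVR1 and PPM1A are the called genes below 0.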

How the data were processed

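Total RNA of cultured cells was labelled and hybridised to 9 Affymetrix arrays, per the labels' protocols. The deposited values are linear intensity values per probe set, which the authors made with GCOS 1.4, per the submitters' processing notes. Neither scaling target nor probe summary is given in the sources used here.

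Intensities below 1 were set to 1 before log2, and the arrays were not rescaled. Without the 62 control probe sets, 29166 probe sets passed the filter above the array median on at least 3 arrays. Symbols came from the platform annotation, updated through RefSeq. For each gene the brightest probe set with 1 symbol was kept, giving 13598 genes. The number of arrays limits the precision.

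Groups were compared with limma 3.58.1 in R 4.3.3: 1 mean per group over all 9 arrays, moderated variances with an intensity trend, two-sided tests and Benjamini-Hochberg adjustment. The code was tested on simulated data. The 10 genes, the lists and the tests were chosen with earlier results of these data known. All 10 genes are named. In each list and comparison, up to 4 called genes with the smallest p, or else the 2 brightest, could be named, and not all are. For likeness, the 3 genes nearest to the member with the smallest F-test p were taken.

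Alternatives changed the filter (none, or the 65th percentile), the scaling (quantile normalization, the 75th percentile), the offset before log2 (32), the trend, array weights, the probe set rule (mean, or each alone), the arrays (the 6 compared, or 1 left out) and added a replicate block. Leaving out SCP51 arrays without a filter was added for SMAD7 after seeing the data. Figures were drawn with matplotlib 3.10.9.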

Additional observations from a re-analysis of the deposited data

How the results depend on the processing

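Of the alternatives run for single genes of the 10, 484 kept direction and side of the threshold, 21 lost the call, 4 gained one and 27 changed sign. All sign changes concerned genes that were not called: BMP4, BMP7, ID1, SMAD3 and SMAD4. Neither quantile normalization nor centring at the 75th percentile changed a sign. With array weights, SCP51 minus SCP58 became 0.13 for BMP7 and 0.068 for SMAD3, SCP51 minus the parent became 0.043 for BMP7, -0.23 for ID1 and 0.17 for SMAD3, and SCP58 minus the parent became 0.013 for BMP4 and -0.083 for BMP7. With the probe sets of a gene averaged, BMP7 became 0.022 (SCP51 minus the parent) and SMAD4 -0.095 (SCP51 minus SCP58). Leaving out 1 array gave, for SCP51 minus SCP58, -0.065 to 0.69 for BMP4, -0.38 to 0.20 for BMP7, -1.21 to 0.15 for SMAD3 and -0.16 to 0.33 for SMAD4. For SCP51 minus the parent it gave -0.091 to 0.66 for BMP4, -0.33 to 0.24 for BMP7, -0.18 to 0.22 for ID1 and -0.85 to 0.51 for SMAD3. For SCP58 minus the parent it gave -0.056 to 0.012 for BMP4, -0.020 to 0.14 for BMP7 and -0.096 to 0.37 for SMAD4. Of the 4 gained calls, BMP4 passed against the parent with array weights (0.58, adjusted p = 0.0499) and SMAD7 passed for SCP58 against the parent (0.45, adjusted p = 0.0463). The causes were not tested.

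Counts moved more. The genes called between SCP51 and SCP58 (555) became 1527 with array weights, 173 in a fit of just those 6 arrays and 137 to 1189 with 1 array left out. Between SCP51 and the parent (402) these counts were 1356, 184 and 122 to 724, and between SCP58 and the parent (19) they were 1351, 37 and 0 to 75. The split between SCP51 and SCP58, 201 higher of 555, was 319 of 621 after quantile normalization and 312 of 610 after centring. Between SCP51 and the parent, 187 higher of 402 became 246 of 415 and 247 of 430. Of the 10 genes, the 2 called between SCP51 and SCP58 became 1 with the stricter filter, 1 with probe sets averaged, 0 with only the 6 arrays compared and 0 to 2 with 1 array left out. Between SCP51 and the parent 2 to 3 were called with 1 array left out, 2 only where SMAD7 was not tested. SMAD7 did not pass the stricter filter, nor the main filter without an SCP51 array, so those fits did not test it. Between SCP58 and the parent the 1 call became 2 with array weights and 0 to 1 with 1 array left out. Their probe sets called (2, 3 and 1) became 4 between SCP51 and SCP58 and 4 between SCP58 and the parent with array weights, 0 and 2 with only the 6 arrays, and 0 to 3, 0 to 3 and 0 to 2 with 1 array left out. The 8 other pathway genes called between SCP51 and SCP58 became 5 without the filter, 13 with array weights, 3 with only the 6 arrays and 3 to 11 with 1 array left out. The 7 called between SCP51 and the parent became 11 with array weights, 3 with only the 6 arrays and 2 to 9 with 1 array left out. The 0 between SCP58 and the parent became 12 with array weights and stayed 0 with any 1 array left out.

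The replicate numbers did not pair the arrays: same-numbered arrays of different groups had correlations of their deviations from the group means between -0.22 and 0.13. In a fit with a replicate block, 210, 167 and 6 genes were called in the 3 comparisons, 0, 3 and 0 of the 10 genes, 0 and 0 of their probe sets in the comparisons with SCP58, and 3, 3 and 0 of the other pathway genes. The blocked adjusted p was 0.0564 for TGFBR2 and 0.0695 for SMAD7 between SCP51 and SCP58, and 0.0716 for BAMBI between SCP58 and the parent.

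With 3 arrays a group, 1 line for each metastatic class and no detection calls, signals near the array median, SMAD7 and INHBA among them, are the least certain.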
